A study of Mus musculus with 2 samples.

Results

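The fibroblasts described here are 163 cells of 1 droplet library made from organoids of intestinal adenomas. They were chosen by their own counts. A cell had to hold at least 2000 unique molecular identifiers (UMIs, each standing for 1 counted RNA molecule) and at most 20% mitochondrial UMIs. Its summed count of Dcn, Lum, Pdgfra, Col1a1 and Col3a1 had to reach 10 and to exceed each of 4 other marker sums, for epithelial cells (Epcam, Krt8, Krt18, Krt19), pericytes (Rgs5, Des, Myh11, Pdgfrb), endothelial cells (Pecam1, Cdh5, Kdr, Plvap) and macrophages (C1qa, C1qb, C1qc, Csf1r). The fibroblasts were 5.19% (95% Clopper-Pearson interval 4.44 to 6.02) of the 3143 control cells that passed the depth and mitochondrial limits, and 163 of 6122 cells in both libraries of the series.

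The series holds an RSPO1-Fc library and a control library, each of 1 culture. Both cultures came from C57BL/6 mice, 17 weeks of age, that were heterozygous for the Min allele of Apc (ApcMin/+), a tumour suppressor that restrains Wnt/beta-catenin signalling. The RSPO1-Fc culture received a fusion protein of R-spondin 1 at 10 ug/ml per the treatment protocol, although another label gives the same number in milligrams, and the control culture received none. The number of animals behind a culture, its passage and the source of its stromal cells are not given in the sources used here. With 1 library a group and cells chosen by their counts, no test was made, and every value is a description of these libraries.

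Fibroblasts of the intestinal wall build the collagen matrix and send short-range signals to the epithelium beside them. Near the crypt base they are known for Wnt ligands, R-spondins and inhibitors of bone morphogenetic proteins (BMPs), which keep stem cells dividing, and nearer the surface for Wnt5a and BMP ligands, which favour differentiation. In tumours they are also known for matrix proteases, growth factors of the EGF and FGF families, and inflammatory signals such as prostaglandins.

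The plot of marker sums by cell shows how the rule drew its borders. In the control library 239 cells held a fibroblast sum of at least 10, and 76 of them stayed out because another sum was as high or higher. That sum was the pericyte sum in 67 cells, the epithelial sum in 7 and the macrophage sum in 2. The lowest member had a sum of 15 UMIs and the highest otherwise passing cell below the limit had 7. The fibroblast sum of the members had a median of 138 UMIs and a maximum of 1227. Every other marker sum was under 10 UMIs in 121 members, while 42 members had another sum of 10 or more, in 36 of them the pericyte sum. Of the 5 marker genes, Col1a1 was found in 162 members, Col3a1 in 161, Dcn in 152, Pdgfra in 129 and Lum in 42.

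**Figure D1:**
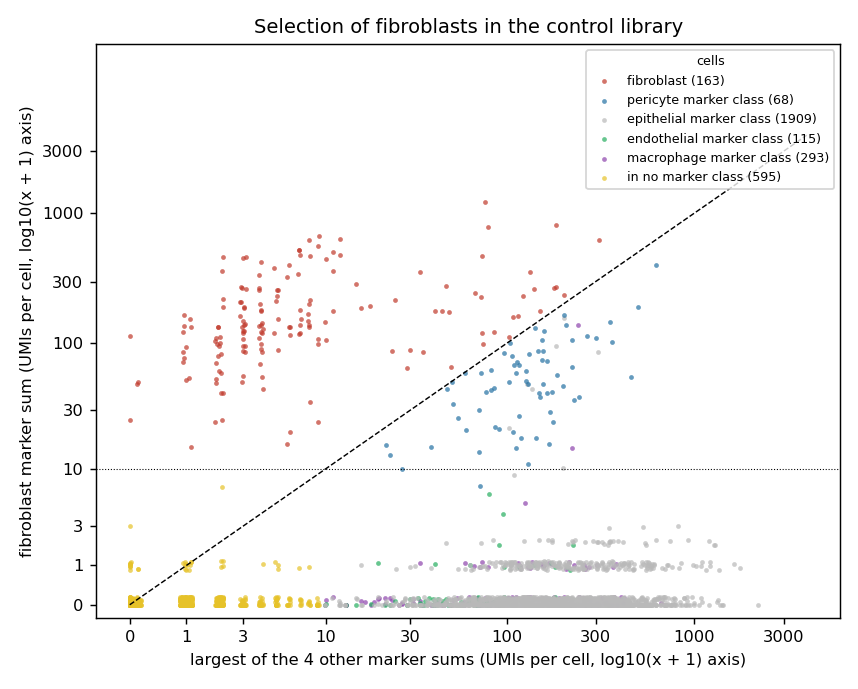
Each point is a control cell, placed by the largest of its 4 other marker sums (x) and its fibroblast marker sum (y), both in UMIs per cell on log10(x + 1) axes; the dashed line marks equal sums and the dotted line a fibroblast sum of 10. The 163 fibroblasts lie above both lines, and the 67 cells that a higher pericyte sum kept out lie on or under the dashed line.

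The members held 2086831 UMIs, with a median of 10694 UMIs a cell (2694 to 81107), 3373 genes a cell and 5.51% mitochondrial UMIs. The other 2980 control cells held 75462657 UMIs with a median of 19202 a cell. By the mirror image of the rule they comprised 1909 cells of an epithelial marker class (median 27354 UMIs), 68 of a pericyte class (8825.5), 115 of an endothelial class (13740), 293 of a macrophage class (11172) and 595 cells in no class (3197). The libraries totalled 89437327 UMIs in RSPO1-Fc and 91675581 UMIs in control, and shared 0 cell barcodes. Levels are given in CPM, the UMIs of a gene summed over the cells of a class and scaled to 1e6 UMIs of that class. Such a sum does not tell more expressing cells from more RNA per cell, so the number of cells with a UMI stands beside it. Intervals are exact 95% intervals and cover counting error only.

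The cell type was checked with markers outside the rule. Col1a2, the second chain of type I collagen, was found in 159 of 163 members at 3627 CPM. Tcf21, a transcription factor of fibroblast precursors, was found in 122 members, and Foxf1, a factor of gut mesenchyme, in 128. These genes do not by themselves separate fibroblasts from the pericyte class. The fibrillar collagens outside the rule summed to 5970 CPM in fibroblasts and 3793 CPM in the pericyte class. Tcf21 and Foxf1 were also found in that class, at the lower levels given below. Markers of the epithelial, endothelial and macrophage classes were far below their levels in those classes, but not at 0. Outside the rule's own genes, the epithelial list summed to 102 CPM in fibroblasts and 2264 CPM in the epithelial class, with a range of 0 to 2104 CPM per member and 122 members at 0. The endothelial list summed to 186 CPM, against 4505 CPM in the endothelial class, and 108 members were at 0. The macrophage list summed to 224 CPM, against 22529 CPM in the macrophage class, and 96 members were at 0. Lists for T, NK and B cells and for mesothelium were at 0 in 159 members each, and the glia and neuron list in 139. The pericyte list summed to 629 CPM in fibroblasts and 3453 CPM in the pericyte class, and 37 members were at 0. The lymphatic list summed to 321 CPM in fibroblasts and 275 CPM in the endothelial class, and 38 members were at 0. Pdpn, podoplanin, which fibroblasts are also known to make, gave 243 CPM of the 321 CPM. The other lymphatic markers were low in fibroblasts, with Prox1 at 48.9 CPM, Lyve1 at 17.3 CPM and Flt4, Reln and Mmrn1 each under 5 CPM. The adipocyte list summed to 116 CPM in fibroblasts and 935 CPM in the endothelial class, with 139 members at 0, and Fabp4 gave 106 CPM of it. The interstitial Cajal list summed to 49.4 CPM in fibroblasts and 226 CPM in the endothelial class, with 107 members at 0. The mast cell and granulocyte list summed to 159 CPM in fibroblasts and 25252 CPM in the cells of no class, with 124 members at 0. The part that these other markers play in the values below was not tested beyond the alternatives named.

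Epcam, the rule's epithelial surface marker, was found in 36 members at 103 CPM, 32.6% of it in 1 cell. RNA outside cells was read from barcodes with 10 to 100 UMIs, where Epcam had 1067 CPM and Dcn 1405 CPM. The epithelial markers set an upper limit of 8.87% on the share of fibroblast UMIs that could be free RNA of this profile.

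Against all other control cells, 7817 genes reached 20 CPM in either pool. Of the 75462657 UMIs in the pool of other cells, the epithelial class held 66562752 and the pericyte class 710724. A ratio over this pool is therefore mostly a ratio over epithelial-class cells. Of these, 1391 (17.8%) were at least 2-fold higher and 1342 (17.2%) at least 2-fold lower in fibroblasts, on log2((CPM + 1)/(CPM + 1)), with a median of -0.14 over all genes tested. A gene had to be at least 2-fold above each of the epithelial, pericyte, endothelial and macrophage classes to count as standing apart from all of them, and 291 of 9188 genes (3.17%) did. The nearest class was the pericyte class, from which 721 of 7136 genes (10.1%) were at least 2-fold higher and 620 (8.69%) at least 2-fold lower. The share at least 2-fold higher in fibroblasts was 19.5% over the epithelial, 15.7% over the endothelial and 23.1% over the macrophage class. All these genes belong to the cells the rule picked, so the counts describe the choice and are read as such. Lists of genes by role are set out in the plot of log2 ratios.

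**Figure D2:**
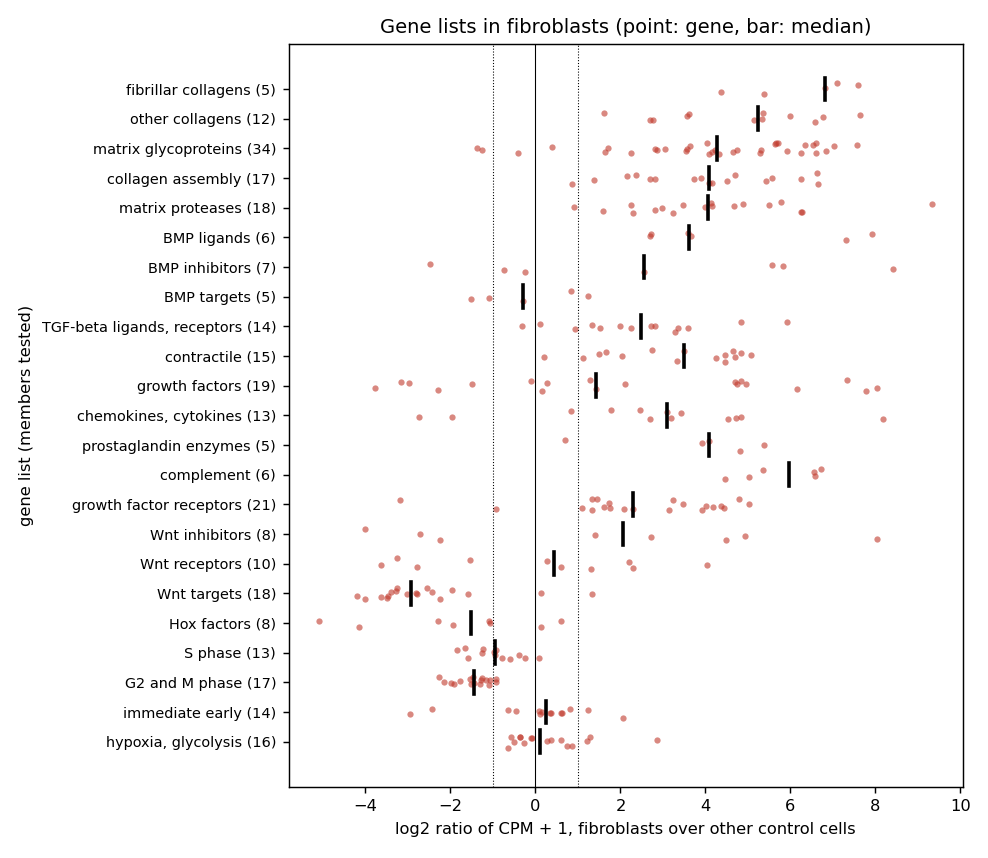
Each point is a gene of a list with at least 20 CPM in either pool, placed by its log2 ratio of CPM + 1 in fibroblasts over other control cells, with bars at list medians, a solid line at 0 and dotted lines at 2-fold. Collagens, complement and BMP ligands lie to the right, while Wnt targets, Hox factors and genes of the G2 and M phases lie to the left.

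The structural matrix made the broadest block. All 5 tested fibrillar collagens outside the rule and all 12 other collagens were higher in fibroblasts than in other control cells, with median log2 ratios of 6.82 and 5.24. Above each class stood 2 of the fibrillar and 3 of the other collagens. The other collagens summed to 9731 CPM in fibroblasts, 14119 CPM in the pericyte class and 9562 CPM in the endothelial class. Col1a2 reached 3627 CPM in fibroblasts and 17.8 CPM in other cells, a 204-fold ratio (192 to 216). Col12a1, a collagen that sits on fibril surfaces, reached 686 CPM in fibroblasts, 205 CPM in the pericyte class and 2.43 CPM in all other cells. The collagens did not all stand above the pericyte class. Col5a2, which regulates fibril diameter, had 1222 CPM in fibroblasts and 957 CPM in pericyte-class cells. Col4a1 of basement membrane had 2399 CPM in fibroblasts, against 5090 CPM in the endothelial class.

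Of 34 matrix glycoproteins and binding proteins, 30 stood higher and 2 lower (median 4.28), and 12 stood above each class. Fibronectin, Fn1, had 2144 CPM in fibroblasts and 701 CPM in the pericyte class, its next highest. Tenascin C, Tnc, a glycoprotein of wounds and tumour stroma, had 532 CPM in fibroblasts and 174 CPM in the pericyte class. Igfbp5, a binding protein for insulin-like growth factors, had 3300 CPM in fibroblasts and 273 CPM in the pericyte class, but 10 members held 50% of its UMIs. Mgp, an inhibitor of calcification, was lower, with 412 CPM in fibroblasts and 1062 CPM in other cells, and 37.0% of its fibroblast UMIs lay in 1 cell. The genes for collagen assembly were higher for 16 of 17 genes, with none lower, but they summed to 3413 CPM in fibroblasts and 4398 CPM in the pericyte class, and 3 stood above each class. Loxl1, which cross-links elastin and collagen, had 149 CPM in fibroblasts and 32.4 CPM in the pericyte class. Sparcl1, a secreted matrix protein on the list, had 127 CPM in fibroblasts and 1338 CPM in the pericyte class.

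Matrix proteases and their inhibitors were higher for 17 of 18 genes (median 4.06) and lower for 0, and 6 stood above each class. Mmp2, a gelatinase, was spread widely, with a UMI in 144 members and 647 CPM in fibroblasts against 7.36 CPM in other cells. Mmp14, its membrane-bound activator, was found in 152 members. The stromelysin Mmp10 reached 1303 CPM in fibroblasts and 1.02 CPM in other cells, a 1277-fold ratio (1018 to 1624), from 107 members with a median of 241 CPM and a maximum of 18421 CPM. The collagenase Mmp13 reached 1142 CPM from 53 members, but 33.9% of its UMIs came from 1 cell, and the macrophage class had 374 CPM. The stromelysin Mmp3 had 94.9 CPM from 17 members. Mmp9, a gelatinase of myeloid cells, had 600 CPM in fibroblasts, against 1079 CPM in the macrophage class. Timp1, a protease inhibitor, had 316 CPM in fibroblasts and 172 CPM in the pericyte class.

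The genes of Mmp10, Mmp13 and Mmp3 lie in the metalloprotease cluster of chromosome 9 (GENCODE M21, GRCm38: Mmp10 at chr9:7502352-7510240, Mmp13 at chr9:7272514-7283331, Mmp3 at chr9:7445822-7455975, all on the plus strand). Their promoters are shown because AP-1 sites in them are a route, known from human cells, by which growth factors and cytokines control these proteases. The 110 bases before each RefSeq start (GRCm38.p6, plus strand) are printed 5′ to 3′, with the AP-1 letters TGAGTCA or their reverse complement TGACTCA in capitals. They cover chr9:7502232-7502341 for Mmp10, chr9:7272404-7272513 for Mmp13 and chr9:7445712-7445821 for Mmp3.
Mmp10: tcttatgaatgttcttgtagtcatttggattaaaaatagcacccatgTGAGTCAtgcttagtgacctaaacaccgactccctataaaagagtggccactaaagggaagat
Mmp13: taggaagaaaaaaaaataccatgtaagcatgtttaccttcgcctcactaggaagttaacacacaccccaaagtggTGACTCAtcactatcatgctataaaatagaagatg
Mmp3: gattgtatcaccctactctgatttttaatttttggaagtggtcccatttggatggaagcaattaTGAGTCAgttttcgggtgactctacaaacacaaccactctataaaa
The AP-1 letters begin 63 bases before the start in Mmp10, 35 in Mmp13 and 46 in Mmp3, and each promoter also holds TATAAA, beginning 29, 16 and 7 bases before it. On either strand, the AP-1 letters occur in 1709 of 32851 promoters of the RefSeq table (5.20%), each 250 bases before to 50 after a start. TATAAA, counted in the printed direction only, occurs in 2733 (8.32%). These shares count every promoter, while those of the gene sets below take only the first promoter of each gene. Among the 291 genes above each class, 210 had a promoter in the table and 16 of those (7.62%) held the AP-1 letters. Among the 1391 higher genes it was 41 of 1048 (3.91%). The letters are a description and show no binding.

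Among Wnt ligands, 1 gene dominated. Wnt5a (chr14:28504750-28527448, plus strand), a ligand that mostly acts outside the beta-catenin route, was found in 142 of 163 members at 878 CPM (839 to 920), against 1.55 CPM in other cells, a 567-fold ratio (470 to 689). Its median member had 775 CPM and its highest 2701 CPM. After each cell was thinned to 2000 UMIs it was found in 66.9% of fibroblasts, 7.35% of pericyte-class cells and 0.105% of epithelial-class cells. Wnt4, another Wnt ligand of gut stroma, had 97.3 CPM from 62 members, and Wnt5b, a close relative of Wnt5a, had 32.1 CPM from 48. Wnt6 ran the other way, with 27.8 CPM in fibroblasts and 208 CPM in the epithelial class. Of 14 Wnt and R-spondin genes on the list, 4 reached 20 CPM, of which 3 were higher and 1 lower.

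The ligands known to feed intestinal stem cells were near the floor. Wnt2b, a beta-catenin ligand of gut stroma, had 9 UMIs in 9 members, and Wnt2, another, 12 UMIs in 7 members. R-spondins raise the number of Wnt receptors on a cell by way of Lgr receptors. Rspo3 had 38 UMIs in 21 members (18.2 CPM, 12.9 to 25.0) and 0.0530 CPM in other cells, and was found in 2 members after thinning. Rspo2 had 1 UMI and Rspo1 had 0, for which 3 counts set a limit of 1.44 CPM.

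Secreted Wnt inhibitors were split, with 5 of 8 higher and 3 lower. Sfrp1 (chr8:23411502-23449632, plus strand), which binds Wnt proteins outside the cell, had 332 CPM in fibroblasts and 0.535 CPM, from 1 UMI, in the endothelial class, its next highest. It came from 44 members, with a maximum of 10760 CPM, and 7 of them held 50% of its UMIs. Frzb, a relative of Sfrp1, had 32.1 CPM from 44 members. Wif1, which binds Wnt, was lower, with 173 CPM in fibroblasts and 826 CPM in other cells. Notum, an enzyme that strips the lipid from Wnt, had 14.4 CPM in fibroblasts and 246 CPM in other cells. Of Wif1, 22.8% of the fibroblast UMIs lay in 1 member.

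All 6 tested BMP ligands were higher in fibroblasts (median 3.62), and 4 stood above each class. The ligand list summed to 1898 CPM in fibroblasts, 183 CPM in the pericyte class and 165 CPM in the endothelial class. In the epithelial class it summed to 92.2 CPM. Bmp4 (chr14:46383520-46390669, minus strand) was found in 139 members at 796 CPM (758 to 835), against 4.00 CPM in other cells, a 199-fold ratio (176 to 226). Thinned, it was found in 67.5% of fibroblasts and 0.576% of epithelial-class cells. Bmp5 (chr9:75775364-75900310, plus strand) was found in 138 members at 391 CPM, a 641-fold ratio (476 to 883). Bmp7 had 269 CPM from 126 members, against 39.9 CPM in other cells. Bmp2 was patchier, with 251 CPM from 69 members, 14.5% of it in 1 cell.

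BMP inhibitors were found beside the ligands. Grem1 (chr2:113746164-113758646, minus strand), which binds BMP2 and BMP4 proteins and marks stroma under the crypt base, was found in 98 members at 776 CPM (738 to 815), against 1.27 CPM in other cells, a 610-fold ratio (496 to 757). 13 members held 50% of its UMIs, with a median of 187 CPM and a maximum of 6562 CPM. Thinned, it was found in 41.7% of fibroblasts (34.1 to 49.7), 2.94% of pericyte-class cells and 0.105% of epithelial-class cells. A UMI of both Grem1 and Wnt5a was found in 92 members, of Grem1 alone in 6 and of Wnt5a alone in 50. A UMI of both Grem1 and Bmp4 was found in 87. Nbl1, a second secreted inhibitor, had 419 CPM from 139 members, and Fstl1, a follistatin-like protein, had 809 CPM in fibroblasts and 882 CPM in the pericyte class. Noggin, Nog, had 3 UMIs and Chrdl1 had 0. Of the 5 tested BMP target genes 1 was higher and 2 lower. Id3, a repressor induced by BMP, had 1127 CPM in fibroblasts and 627 CPM in other cells, and Id1 had 246 CPM in fibroblasts and 709 CPM in other cells.

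**Figure D3:**
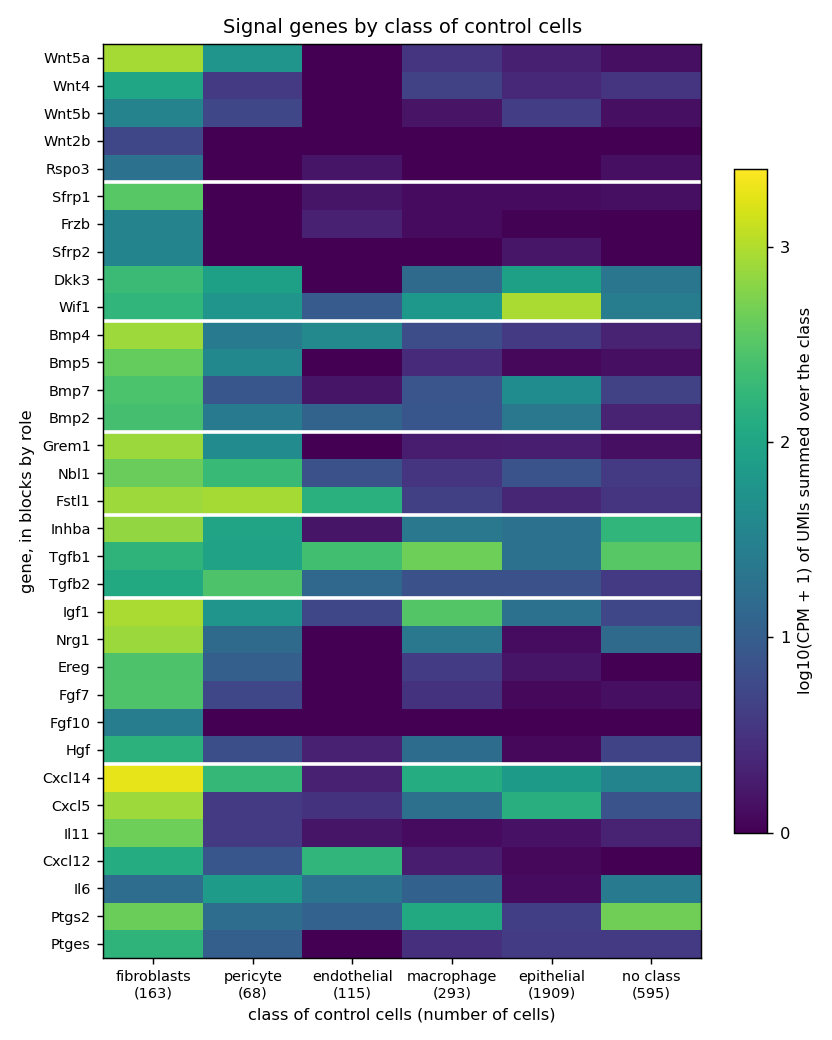
Colour gives log10(CPM + 1) of UMIs summed over each class of control cells (columns, with cell numbers) for signal genes in blocks by role (rows). Wnt5a, Bmp4, Bmp5, Grem1, Nrg1 and Igf1 are bright in the fibroblast column, whereas Il6 is brighter in the pericyte column (15.3 CPM in fibroblasts, 73.2 CPM in the pericyte class).

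Markers of 2 described gut fibroblast types were compared. The telocyte list, named for the Pdgfra-high, Foxl1-expressing cells beneath the epithelium, had 10 of 11 tested genes higher and 1 lower (median 3.95), and 8 stood above each class. It shares Wnt5a, Bmp5, Bmp7 and Tnc with lists above. Gpx3, a secreted antioxidant enzyme on that list, had 875 CPM from 151 members, and Foxl1 had 53.7 CPM from 62. Sox6, another of its factors, was lower, with 18.7 CPM in fibroblasts and 39.5 CPM in other cells. The trophocyte list, named for the Pdgfra-low cells around the crypt base, had 3 of 7 higher and 2 lower (median 0.87). Its higher genes were Grem1, C3 and Fgf7, and in the 121 members with every other marker sum under 10 it had 5 higher genes. Several of its other genes were scarce, with Cd34 in 3 members, Ackr4 in 9 and Pi16, Dpp4 and Clec3b at 1 UMI each. Cd81 had 59.9 CPM in fibroblasts and 493 CPM in other cells.

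Of 14 tested TGF-beta pathway genes 11 were higher and 0 lower than in other control cells, but 3 stood above each class. The pathway list summed to 2290 CPM in fibroblasts, 2140 CPM in the endothelial class and 1631 CPM in the pericyte class. Inhba, which forms activin A, had 714 CPM from 121 members in fibroblasts and 23.8 CPM in other cells, a 30.0-fold ratio (28.0 to 32.1). Tgfb1 itself was higher in the macrophage class, at 161 CPM in fibroblasts and 441 CPM in macrophage-class cells. Of 13 targets 9 were higher and 1 lower than in other control cells, but 3 stood above each class. The target list summed to 7716 CPM in fibroblasts, 8096 CPM in the endothelial class and 7353 CPM in the pericyte class. Pmepa1, a target that dampens the pathway, had 2152 CPM in fibroblasts and 514 CPM in the macrophage class.

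Growth factors for the epithelium were higher for 11 of 19 genes and lower for 5, and 7 stood above each class. Nrg1, a ligand of ErbB3 and ErbB4, was found in 124 members at 783 CPM in fibroblasts, against 1.99 CPM in other cells, a 394-fold ratio (333 to 469). Igf1 had 942 CPM from 130 members, while the macrophage class had 313 CPM. Fgf7, a ligand of the epithelial FGF receptor, had 291 CPM from 88 members and a ratio of 878 (589 to 1368). Hgf, the Met ligand, had 151 CPM from 102 members, and Fgf10, a relative of Fgf7, had 26.4 CPM from 37. Ereg, an EGF receptor ligand, had 280.3 CPM from 76 members, but 21.9% of it came from 1 cell. Of the same family, Areg had 8.63 CPM in fibroblasts and 45.9 CPM in other cells, and Hbegf had 16.8 CPM in fibroblasts and 139 CPM in other cells.

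Several inflammatory signals had high ratios, and some came from few members. Il1rl1 (chr1:40429570-40465415, plus strand), the receptor of interleukin 33, was found in 96 members at 1486 CPM (1434 to 1539), against 2.40 CPM in other cells, a 619-fold ratio (533 to 724). Its ligand Il33 had 2 UMIs in the fibroblasts and 29.4 CPM in the epithelial class. Saa3 (chr7:46711998-46715700, minus strand), an acute-phase protein, had 5352 CPM in fibroblasts and 8.00 CPM in other cells, from 66 members of which 7 held 50% of the UMIs. Saa3 has close copies in the genome, so its reads may be shared with them. Il11 (chr7:4772373-4782859, minus strand), a cytokine of the interleukin 6 family, had 439 CPM from 57 members, 39.3% of it in 1 cell, and 3 cells held 50%. In the 121 members with every other marker sum under 10 it had 193 CPM from 42. Il6 had 32 UMIs in 9 members, and its ratio turned below 0 in those 121 members (log2 -1.88, against 2.15 in all members). Of 13 chemokines and cytokines, 10 were higher and 2 lower, and the list summed to 4097 CPM in fibroblasts and 5444 CPM in the macrophage class. Cxcl14 was broad, with 1887 CPM from 155 members in fibroblasts and 180 CPM in the pericyte class. Cxcl5, a neutrophil attractant, had 791 CPM from 51 members, 38.2% of it in 1 cell. Cxcl12, which holds stem and immune cells in place, had 126 CPM in fibroblasts and 171 CPM in the endothelial class.

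The prostaglandin E2 enzymes were higher for 4 of 5 tested genes. Ptgs2, the inducible cyclooxygenase, had 433 CPM from 71 members in fibroblasts and 116 CPM in the macrophage class. Ptges, the synthase that follows it, had 160 CPM from 105 members in fibroblasts and 9.85 CPM in the pericyte class. All 6 tested complement genes were higher than in other control cells (median 5.96), and 3 stood above each class. The complement list summed to 2824 CPM in fibroblasts and 2293 CPM in the pericyte class. C3, the central component, had 350.3 CPM from 120 members in fibroblasts and 90.1 CPM in the macrophage class. C4b, its upstream partner, had 370 CPM in fibroblasts and 50.7 CPM in the pericyte class. Serping1, the C1 inhibitor, had 958 CPM in fibroblasts and 1089 CPM in the pericyte class.

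Contractile genes were higher than in other control cells for 14 of 15 genes, but 0 stood above each class. Acta2, smooth muscle actin, had 1115 CPM from 116 members in fibroblasts and 3477 CPM in the pericyte class, a ratio of 0.321 (0.303 to 0.340). In the 121 members with every other marker sum under 10, Acta2 had 649 CPM from 76 members, and the other 42 members held 64.2% of its UMIs. Tagln, an actin-binding protein, had 739 CPM in fibroblasts, 509 CPM in those 121 members, and 2742 CPM in the pericyte class. Pdgfrb, the PDGF receptor shared by fibroblasts and pericytes and a gene of the pericyte sum, was found in 146 members at 366 CPM in fibroblasts, against 1090.4 CPM in the pericyte class. Rgs5, the defining pericyte marker, was found in 27 members at 755 CPM, against 11978 CPM in the pericyte class. Of those 27 members, 8 also had a Pdgfra UMI and 19 did not, whereas Pdgfra without Rgs5 was found in 121.

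Of 21 growth factor and cytokine receptors, 19 were higher and 1 lower (median 2.30), and the list summed to 3318 CPM in fibroblasts and 3858 CPM in the pericyte class. Il1r1, the interleukin 1 receptor, had 229.5 CPM from 142 members in fibroblasts and 77.4 CPM in the pericyte class. Of 5 tested hedgehog genes 3 were higher and 1 lower. Ptch1, the hedgehog receptor and its own pathway's target, had 402 CPM from 125 members in fibroblasts and 108 CPM in the pericyte class. Foxf1, a target of the pathway on the same list, had 242 CPM in fibroblasts and 104 CPM in the pericyte class. Mesenchymal transcription factors were higher for 20 of 26 genes and lower for 3, but the list summed to 3350 CPM in fibroblasts and 4812 CPM in the pericyte class, and 4 genes stood above each class. Tcf21 was one of these, with 198 CPM in fibroblasts and 83.0 CPM in the pericyte class. Ebf1, on the same list and, like Sparcl1 above, named after its values were seen, had 142 CPM in fibroblasts and 1235 CPM in the pericyte class, and had 0 UMIs in the 121 members with every other marker sum under 10.

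Of 10 tested Wnt receptor genes 4 stood higher and 4 lower. Fzd1, a Wnt receptor, had 105 CPM from 97 members in fibroblasts and 5.46 CPM in other cells. Of 8 antigen presentation genes 2 stood higher and 4 lower. B2m, the light chain of class I molecules, had 705 CPM in fibroblasts and 272 CPM in other cells, while Cd74 of the class II route had 157 CPM in fibroblasts and 577 CPM in other cells, with 85.7% of the fibroblast UMIs in 1 member.

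Targets of beta-catenin were low against the pool of other control cells, but not against each class in it. Of 18 beta-catenin target genes 1 stood higher and 16 lower than in that pool (median -2.93). The list summed to 816 CPM in fibroblasts and 4087 CPM in the epithelial class. It summed to 602 CPM in the pericyte class, 786 CPM in the endothelial class and 557 CPM in the macrophage class. Axin2, a feedback inhibitor of Wnt signalling, had 25.9 CPM from 18 members, against 299 CPM in other cells. Lgr5, the R-spondin receptor of stem cells, had 10.1 CPM in fibroblasts and 75.3 CPM in other cells, with 57.1% of its UMIs in 1 member. The list's only higher gene was Cd44, a hyaluronan receptor, with 252 CPM in fibroblasts and 99.8 CPM in other cells. Hox factors, which mark position along the gut, were higher for 0 of 8 tested genes and lower for 6. Hoxb13, the most posterior of its cluster, had 4.31 CPM in fibroblasts and 93.3 CPM in other cells.

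Cycling genes were low against the pool of other control cells, but not absent. Of 17 genes of the G2 and M phases 0 stood higher and 15 lower (median -1.45), and of 13 S phase genes 0 were higher and 5 lower. The G2 and M list summed to 310 CPM in fibroblasts and 939 CPM in the epithelial class. It summed to 325 CPM in the endothelial, 497 CPM in the macrophage and 537 CPM in the pericyte class. The S phase list summed to 313 CPM in fibroblasts and 618 CPM in the epithelial class. In the pericyte, endothelial and macrophage classes it summed to 391, 401 and 440 CPM. Mki67, a marker of cycling cells, had 37.4 CPM in fibroblasts and 93.7 CPM in other cells, from 7 of 163 members. The Cdk inhibitor Cdkn1a was also lower, with 63.7 CPM in fibroblasts and 298 CPM in other cells. Xist, expressed from the inactive X chromosome of female cells, was found in all 163 members at 1081 CPM, against 1445 CPM in other cells. Immediate early genes were near the background, with 2 of 14 higher and 2 lower (median 0.24), and so were hypoxia and glycolysis genes, with 3 of 16 higher and 0 lower (median 0.10).

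The lowest ratios belonged to genes of cells in no class or of epithelium. Haemoglobin Hbb-bs had 13.9 CPM in fibroblasts and 1752 CPM in other cells. Hba-a1 had 1.92 CPM in fibroblasts and 694 CPM in other cells, Hba-a2 had 1.92 CPM in fibroblasts and 524 CPM in other cells, and Hbb-bt had 1 UMI in fibroblasts. These globin copies are nearly identical, so reads may be split between them. Igkc of plasma cells had 2 UMIs, against 129 CPM in other cells. The epithelial genes among the lowest were Gsta3, Phgdh and Cldn2 at 2 UMIs each and Sprr2a3 at 1. Ckmt1, a mitochondrial creatine kinase, had 0 UMIs in fibroblasts and 53.9 CPM in other cells.

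With 1 CPM added to both values, the genes that stood highest above every class and are not described above were Dpt, Pappa, Cemip, Trpa1, Nppc and Mfap4. Dpt, a matrix protein that binds decorin, had 215 CPM from 87 members in fibroblasts and 0.264 CPM in the macrophage class. Mfap4, a microfibril protein, had 204 CPM from 34 members. Pappa, a protease that frees insulin-like growth factors, had 210.4 CPM from 91 members, and Cemip, which degrades hyaluronan, had 209 CPM from 47. Trpa1, an irritant-gated channel, had 102 CPM from 53 members. Nppc, a natriuretic peptide, had 127 CPM from 20 members, 36.2% of it in 1 cell.

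Levels per cell ran from genes found in most members to genes found in few. Wnt5a, Bmp4 and Bmp5 each had a UMI in 138 to 142 members, whereas Sfrp1 had one in 44 and Mfap4 in 34. Saa3 had no UMI outside 66 members and reached 102560 CPM in the highest. A UMI missing from a cell of this depth does not show that the gene is silent there. Among genes with values above, several more moved by over 1.5 times in the 121 members with every other marker sum under 10. That limit is a raw UMI count not scaled to depth, so it can also leave out deep cells. A member of 22609 UMIs fell outside it with another sum of 10, Pdgfrb at 442 CPM and Rgs5 at 0. In the 121 members Mmp13 had 698 CPM, Mgp 265 CPM, Cd74 3.90 CPM, Axin2 8.57 CPM, Wnt6 10.9 CPM, Notum 3.12 CPM, Mki67 21.0 CPM and Lgr5 1.56 CPM. Mfap4 was higher in them, at 319 CPM, than in all members.

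**Figure D4:**
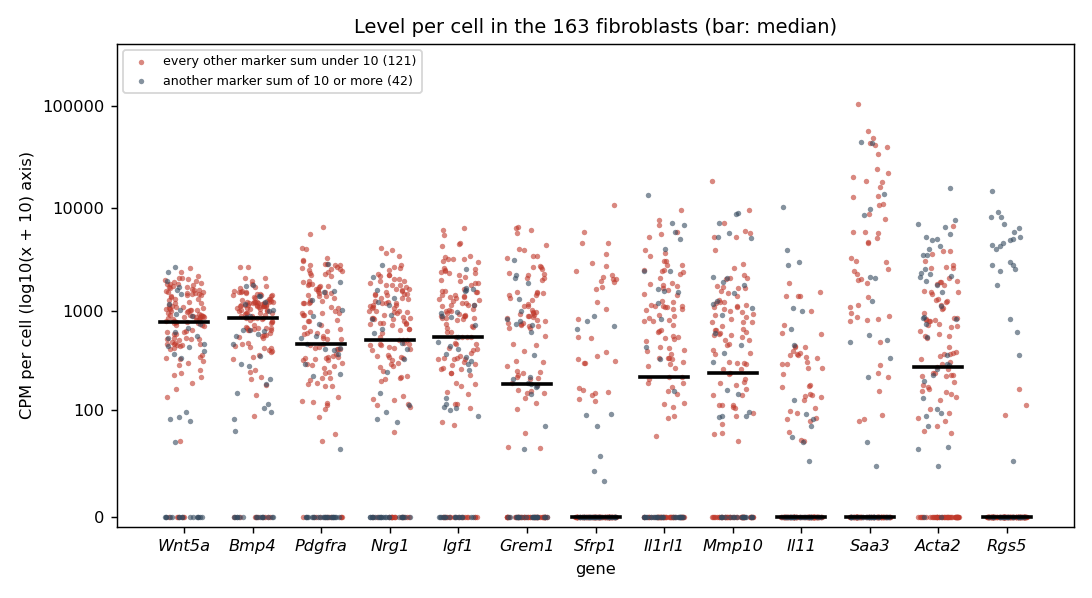
Each point is 1 of the 163 fibroblasts, placed by its CPM of a gene on a log10(x + 10) axis, with bars at the median; red points are the 121 members with every other marker sum under 10 and dark points the other 42. Wnt5a and Bmp4 have medians of 775 and 841 CPM, while Sfrp1, Il11, Saa3 and Rgs5 have medians of 0.

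To describe how the fibroblasts differed among themselves, the 121 members with every other marker sum under 10 were split by a gene chosen after its values were seen, 30 with the highest CPM against the other 91. The same cells give the gene and the split, so the counts carry no test. The 30 members highest in Il1rl1 held 84.2% of its UMIs, and had a median depth of 11658.5 UMIs against 8840 in the other 91. Of 7141 genes, 442 (6.19%) were at least 2-fold higher and 556 (7.79%) at least 2-fold lower in them. Ptgs2 had 949 CPM in the Il1rl1-high members and 141 CPM in the others. Ereg had 778 CPM in the Il1rl1-high members and 103 CPM in the others. Il11 had 452 CPM in the Il1rl1-high members and 76.8 CPM in the others. These signal genes were higher together with proteases. Plau, the urokinase protease, had 402 CPM in the Il1rl1-high members and 68.9 CPM in the others, and Mmp10 had 2584 CPM in the Il1rl1-high members and 525 CPM in the others. Mmp13 had 2036 CPM in the Il1rl1-high members and 96.1 CPM in the others, with 30.6% of the UMIs in 1 cell.

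Lower in the Il1rl1-high members were matrix genes of another set. Sfrp1 had 0 UMIs in these 30 members and 704 CPM in the other 91, of which 34 had a UMI. Ogn, a small proteoglycan, had 0 UMIs in the Il1rl1-high members and 270.1 CPM in the others. Mfap4 had 7.53 CPM in the Il1rl1-high members and 459 CPM in the others. Efemp1, an elastic fibre protein, had 20.1 CPM in the Il1rl1-high members and 236 CPM in the others. The signals Cxcl12 and Igf1 and the contractile gene Acta2 were lower as well. Cxcl12 had 32.6 CPM in the Il1rl1-high members and 237 CPM in the others. Igf1 had 495 CPM in the Il1rl1-high members and 1567 CPM in the others, and Acta2 had 166 CPM in the Il1rl1-high members and 867 CPM in the others. Wnt5a differed less, with 1240.3 CPM in the Il1rl1-high members and 893 CPM in the others, and so did the rule's gene Dcn, with 5664 CPM in the Il1rl1-high members and 4294 CPM in the others.

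The 30 members highest in Grem1 held 79.3% of its UMIs, with a median depth of 9842 UMIs in the Grem1-high members and 9311 UMIs in the others. Of 6976 genes, 366 (5.25%) were higher and 489 (7.01%) lower. Sfrp1 had 1476 CPM in the Grem1-high members and 140 CPM in the others. Mfap4 had 913 CPM in the Grem1-high members and 111 CPM in the others. Igfbp5 had 8739 CPM in the Grem1-high members and 1782 CPM in the others. The neutrophil attractant Cxcl5 was higher too, with 1720.0 CPM in the Grem1-high members and 291 CPM in the others. Pdgfra, a gene of the rule, was lower, with 383 CPM in the Grem1-high members and 1309.9 CPM in the others. Mmp9 had 142 CPM in the Grem1-high members and 911 CPM in the others. BMP ligands differed less. Bmp4 had 837 CPM in the Grem1-high members and 991 CPM in the others, and Bmp5 had 422 CPM in the Grem1-high members and 525 CPM in the others.

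Splits were also made by Igf1 and by Acta2. In the Igf1-high members 340 of 6875 genes (4.95%) were higher and 517 (7.52%) lower. Sfrp1 had 1320 CPM in the Igf1-high members and 172 CPM in the others. Rspo3 had 62.7 CPM (22 UMIs) in the Igf1-high members and 9.65 CPM (9 UMIs) in the others, and Fgf10 had 96.9 CPM in the Igf1-high members and 17.2 CPM in the others. Plau was lower, with 17.1 CPM in the Igf1-high members and 231 CPM in the others. In the Acta2-high members 335 of 6954 genes (4.82%) were higher and 466 (6.70%) lower. Tagln had 1550.3 CPM in the Acta2-high members and 147 CPM in the others. Ctgf, a secreted target of YAP and TGF-beta, had 411 CPM in the Acta2-high members and 51.5 CPM in the others. Lox, a cross-linking enzyme, had 296 CPM in the Acta2-high members and 59.9 CPM in the others. The growth factor Nrg1 was lower, with 317 CPM in the Acta2-high members and 1194 CPM in the others. Pdgfra was lower too, with 387 CPM in the Acta2-high members and 1307 CPM in the others.

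The 27 of 163 members with an Rgs5 UMI carried a pericyte set. Of 7117 genes, 490 (6.88%) were at least 2-fold higher and 518 (7.28%) lower in them than in the 136 without. Ebf1, a transcription factor, had 638 CPM in members with Rgs5 and 0.616 CPM in members without, and Des, a muscle filament protein of the pericyte sum, had 556 CPM in members with Rgs5 and 8.63 CPM in members without. Notch3, the Notch receptor of mural cells, had 235 CPM in members with Rgs5 and 0 UMIs in members without. Fibroblast signals stood lower in the members with Rgs5. Wnt5a had 422 CPM in members with Rgs5, from 11 of the 27 and with 41.8% of it in 1 cell, and 1009 CPM in members without. Bmp4 had 366 CPM in members with Rgs5, from 15 of the 27, and 919 CPM in members without. Grem1 had 334 CPM in members with Rgs5, 58.7% of it in 1 cell, and 902 CPM in members without. Hgf had 21.5 CPM (10 UMIs) in members with Rgs5 and 188 CPM in members without. Col1a1, a gene of the rule, had 5624 CPM in members with Rgs5 and 3464 CPM in members without. The rule asked for a fibroblast sum above the pericyte sum, which holds Rgs5, so it bears on this difference. The median fibroblast sum was 179 UMIs in members with Rgs5 and 134.5 UMIs in members without. The rule's 5 fibroblast genes summed to 6056 CPM in the pericyte class and 15711 CPM in all fibroblasts. Whether these members are pericytes that passed the rule, single cells of mixed type or 2 cells in 1 droplet was not tested. A doublet caller marked 2 of the 163 members at its own threshold.

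Spearman correlations of CPM per cell over the 121 members are given as a description, since the cells share 1 library and differ in depth. Sfrp1 and Mfap4 correlated at 0.79 (0.72 after thinning to 2000 UMIs), Acta2 and Tagln at 0.72 (0.65), Il1rl1 and Ptgs2 at 0.68 (0.57), and Grem1 and Igfbp5 at 0.63 (0.55). Opposed pairs were Il1rl1 and Sfrp1 at -0.57 (-0.43), Pdgfra and Acta2 at -0.53 (-0.48), and Inhba and Apoe at -0.60 (-0.53). Grem1 and Bmp4 correlated at -0.11 (-0.03) and Grem1 and Wnt5a at 0.15 (0.12). The gene whose CPM followed total UMIs most was Saa3, at 0.49.

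**Figure D5:**
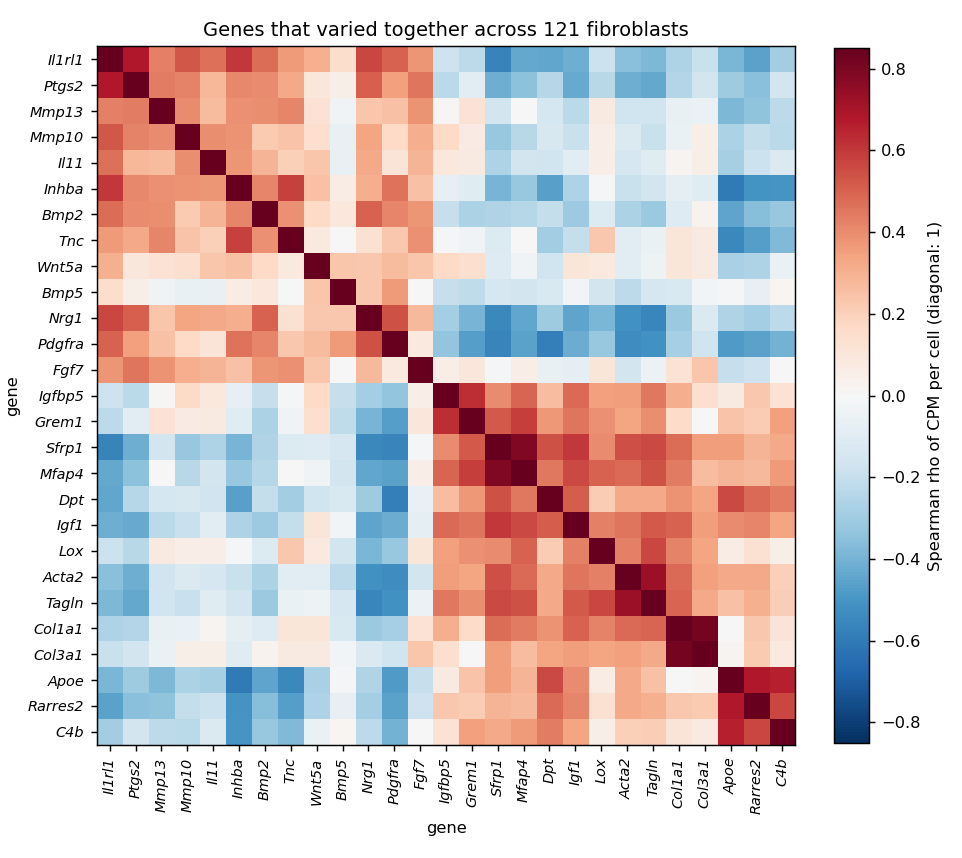
Colour gives Spearman's rho of CPM per cell between 27 genes over the 121 fibroblasts with every other marker sum under 10 (red positive, blue negative, diagonal 1). Il1rl1, Ptgs2, Mmp10 and Inhba form a red block, Grem1, Sfrp1, Mfap4, Igf1, Acta2 and Tagln another, and the area between Il1rl1 and Sfrp1 is blue (-0.57).

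In the RSPO1-Fc library the same rule found 0 fibroblasts among 2979 cells, a share with a Clopper-Pearson interval of 0 to 0.124%, against 163 of 3143 control cells (4.44 to 6.02%). A limit of 3 counts gives 0.101%. The 5 marker genes summed to 66 UMIs in 53 RSPO1-Fc cells and to 38118 UMIs in 582 control cells, and the highest sum in 1 RSPO1-Fc cell was 3. Pdgfra gave 29 of the 66 UMIs, Dcn 25 and Col3a1 1. The control matrix lists 31053 genes and 6794880 barcodes, and the RSPO1-Fc matrix 27998 genes and 737280 barcodes, so the matrices differ in what they could list. With 1 culture each, an effect of RSPO1-Fc, of the culture's own starting cells and of the library cannot be told apart.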

How the data were processed

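Both libraries were made with the 10x Chromium 3′ kit v2, aiming at 5000 cells each, and read against mm10, per the labels' protocols. Cell Ranger 2.1.1 and Seurat 3.1.1 were used per the submitters' processing notes. Per the file headers, however, the control matrix came from Cell Ranger 3.1.0. What the authors deposited are whole UMI counts for each gene in each barcode, before any cell filter or scaling. A barcode list as long as the control's belongs to a later kit than the labelled one, which was not resolved here.

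Cells needed at least 2000 UMIs and at most 20% mitochondrial UMIs. Classes were set by marker sums, and their UMIs were summed, scaled to CPM and compared as log2 ratios with a pseudocount of 1 CPM. Genes with 20 CPM in either pool were tested against a 2-fold limit, and the word tested means only this. Levels have exact Poisson intervals, ratios conditional Clopper-Pearson intervals and shares Clopper-Pearson intervals, all at 95%. Shares of cells were also taken after thinning every cell to 2000 UMIs, a depth that all members reached. Doublets were left in, and removing the cells with the highest scrublet scores (scanpy 1.11.5) was an alternative. No p-value was computed, because cells of 1 library are not replicates. The sums and intervals were checked on simulated counts. Python 3.11.15, numpy 2.4.6, scipy 1.17.1, pandas 2.3.3 and, for TMM scaling, edgeR 4.0.16 in R 4.3.3 were used.

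The members, gene lists, splits and named genes were chosen with earlier results of these data known. Named genes were the 10 highest and 10 lowest ratios, the 10 highest over every other class, up to 4 members per list by level or more where a list is described by role, and Grem1, Rspo3, Wnt5a, Wnt2b, Bmp4, Acta2, Pdgfrb, Cxcl12, Il6, Xist, Hoxb13, Lgr5, Axin2 and Mki67. Mitochondrial, ribosomal protein and unnamed gene models and the rule's genes were left out of the rankings. Genes of the splits and some others, such as Epcam, Il33 and the promoters shown, were added after their values were seen. Promoters come from RefSeq (GRCm38.p6) and gene positions from GENCODE M21. A combined object of both libraries that the labels mention was not analysed here.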

Additional observations from a re-analysis of the deposited data

How the results depend on the processing

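Counts under 14 of 16 alternatives stayed within 1.5 times the main counts of 1391 genes higher, 1342 lower and 291 above each class. These covered the marker sum, depth, mitochondrial and doublet limits, thinning, free RNA, the scaling, the pseudocount, and members restricted or left out after the data were seen. The filter on low values moved counts, by the number of genes it lets in. At 5 CPM, 2277 genes were lower and 461 above each class, and with no filter 2503 were higher, 3096 lower and 614 above each class. Signs turned for 6 single values. Against the epithelial class alone, which lacks the globin-rich cells in no class, the log2 ratios were 1.00 for Hbb-bs, 0.10 for Hba-a1 and 0.43 for Hba-a2. Wnt2b stood at -0.22 after thinning, which left it a UMI in 0 members. Il6 stood at -1.88 in members with every other marker sum under 10 and at -0.77 in members with a Pdgfra UMI, both chosen after the data were seen. The cause was not tested. Of the single-gene and list values, 904 stayed within their interval or within 1.5 times their count, and 146 did not. The higher beta-catenin target was lost with the mean of CPM per cell and after thinning, and 3 Hox genes stood higher at a filter of 5 CPM. Depth limits genes with few UMIs, such as Rspo3, Wnt2 and Mki67, and values that 1 or 3 cells carry, such as Il11 and Mmp13. No paired analysis was possible because each group has 1 library.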
